A study of Mus musculus with 6 samples.

Results

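The messenger RNAs of 10 genes that copy DNA and supply its building blocks were followed in cultured mouse neutrophils with and without miR-223. The genes are Mcm2, Mcm3, Mcm4, Mcm5, Mcm6 and Mcm7, which encode the replicative helicase, Pcna, the ribonucleotide reductase genes Rrm1 and Rrm2, and the thymidine kinase gene Tk1. They were chosen by name, with earlier results of these data known. They are read by 18 of the 45101 probe sets on the array. A probe set is a group of short probes for a stretch of transcript. All 18 passed the filter on dim signal, which kept 27022 probe sets. The pairing of these 18 identifiers with genes was given with the choice of genes and could not be checked against the deposited table, which lists identifiers only.

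The tested cells were neutrophils grown from bone marrow of miR-223 null mice, on 3 arrays, and the comparison cells were neutrophils grown in the same way from wild-type mice, also on 3 arrays. Both genotypes spent 6 days with G-CSF, the cytokine that drives granulocyte formation, and SCF, a stem cell factor that keeps progenitors dividing, and a further 42 hours after SCF was removed, in a medium made for isotope labelling of proteins. Live cells were then taken with magnetic beads (MACS). The labels give no strain, age, null allele or number of mice, and do not say whether replicates were separate cultures, so every p-value reflects the scatter of these arrays alone, which may be technical. Markers of neutrophils and of other cells were not analysed here, and in RNA from a whole culture fewer dividing cells and less RNA per dividing cell cannot be told apart.

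The Mcm2 to Mcm7 proteins form a ring that is loaded onto replication origins before S phase and then unwinds the DNA. Pcna is the sliding clamp that holds polymerases on the template, ribonucleotide reductase makes deoxyribonucleotides, and Tk1 recovers thymidine for the same pool. These genes are known as targets of E2F factors and are switched on as cells enter S phase. In the bone marrow, neutrophil precursors divide up to the myelocyte stage and then leave the cell cycle as they mature. miR-223 is a microRNA abundant in granulocytes, and microRNAs lower the mRNAs they pair with mainly through a seed near the 5′ end. Seed matches in the mRNAs of these genes were not searched, so direct and indirect effects of miR-223 cannot be told apart here. The guide strand of miR-223, which the null genotype lacks, is shown for orientation as RefSeq gives it on the plus strand at chrX:96242884-96242905 (GRCm38.p6), with the seed, bases 2 to 8, in capitals.
mmu-miR-223-3p: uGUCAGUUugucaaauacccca

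Values are log2 intensities as deposited, so a difference of 1 is a doubling. The 6 arrays had medians from 4.71 to 4.73 and highest values of 14.98 to 14.99. The mean signals of the 18 probe sets lay between 9.89 and 13.24. The null minus wild-type difference was tested with limma over all 27022 kept probe sets, at a Benjamini-Hochberg adjusted p under 0.05. Both genotypes carry replicates numbered 1 to 3, and arrays with the same number deviated together, so results are given without and with the replicate number as a block. Without the block 0.189% of kept probe sets passed, 0.141% higher and 0.0481% lower in null cells. With it 10.0% passed, 4.96% higher and 5.05% lower. Bright probe sets passed more often with the block: of the 3426 kept probe sets with mean signals in the range spanned by the 18, 11.4% passed as higher and 11.8% as lower.

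Loss of miR-223 was accompanied by more Rrm2 mRNA, while the other 9 genes averaged slightly less, Tk1 by only 0.015 log2 units. Rrm2 was 1.34- to 1.44-fold higher in null cells by its 3 probe sets, with no overlap between genotypes. Every null array was above in 8.12% of all kept probe sets and 10.0% of those in the same signal range. With the block all 3 Rrm2 sets passed as higher, against 4.96% of all kept probe sets and 11.4% in the same signal range. Without it 2 of 3 passed as higher, against 0.141% of all kept probe sets. The other 15 probe sets averaged between 0.015 and 0.289 log2 units lower in null cells, with a median difference of -0.12, where the median over all kept probe sets was -0.011 and 52.5% of them, or 55.2% of those in the same signal range, were lower. Of these 15, 0 passed without the block (limma, with 1 at an unadjusted p under 0.05). With it 3 passed as lower, 1 each for Mcm4, Mcm5 and Mcm6. The share passing as lower with the block was 5.05% of all kept probe sets and 11.8% in the same signal range. Each of the 3 falls lost its call when 1 or more of the replicate pairs was left out, which no blocked Rrm2 call did, and without the intensity trend all 3 falls and 2 of the 3 blocked rises of Rrm2 lost theirs.

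**Figure D1:**
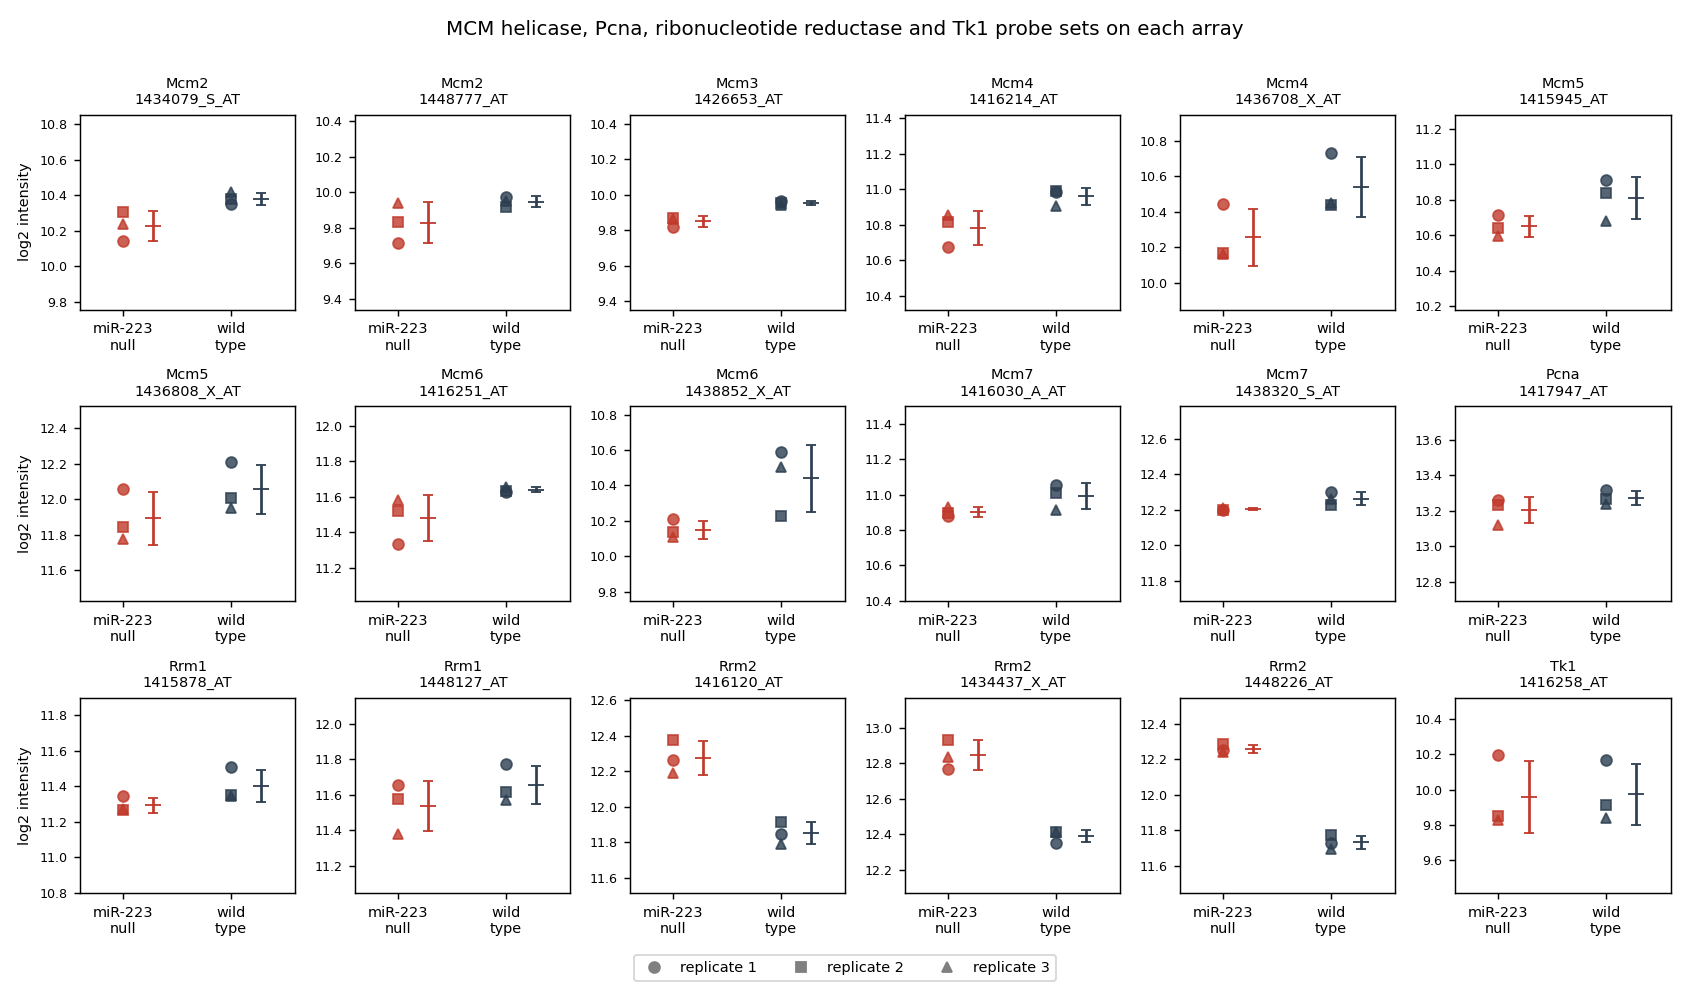
Log2 intensity of each probe set on each array, with miR-223 null arrays on the left (red) and wild-type arrays on the right (dark blue). Marker shape gives the replicate number, bars give mean ± SD (n = 3), and every panel spans the same height. The 3 Rrm2 panels show the null arrays entirely above the wild-type arrays, and most other panels show null arrays slightly lower.

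Rrm2 encodes the small subunit of ribonucleotide reductase, which carries the radical that starts each reduction and is the subunit whose supply follows the cell cycle. Probe set 1448226_AT read 12.25, 12.28 and 12.24 log2 units on null arrays 1, 2 and 3, against 11.72, 11.77 and 11.69 on wild-type arrays 1, 2 and 3. Each null array lay about as far above its wild-type partner as the next, and the genotypes were separated by many times the spread within either. The level averaged 12.26 ± 0.022 in null and 11.73 ± 0.039 in wild-type arrays (SD, n = 3 each). The signal was 1.44-fold higher in null cells, a difference of 0.53 log2 units (SE 0.056 without and 0.035 with the block). The limma adjusted p was 0.0214 without the block and 0.000696 with it. The interval of the difference, at 95%, was 0.45 to 0.61 log2 units with the block and 0.40 to 0.66 without it. Of the 27022 kept probe sets, 393 had a larger average rise.

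The other Rrm2 probe sets gave smaller rises of the same direction. Probe set 1434437_X_AT read 12.77, 12.93 and 12.84 log2 units on the null arrays, against 12.35, 12.41 and 12.41 on the wild-type arrays. Its difference was 0.45 log2 units (1.37-fold, SE 0.060 without the block), with a limma adjusted p of 0.0481 without and 0.00142 with the block. In the manufacturer's naming the ending X_AT marks a set in which some probes can also bind other transcripts, so this set alone is not specific to Rrm2. Probe set 1416120_AT read 12.26, 12.37 and 12.19 log2 units on the null arrays, against 11.85, 11.91 and 11.79 on the wild-type arrays. Its difference was 0.42 log2 units (1.34-fold, SE 0.071 without the block), which did not pass without the block (limma adjusted p = 0.0826) and passed with it (limma adjusted p = 0.00162). The lowest null value exceeded the highest wild-type value in all 3 sets, which was so for 8.12% of all kept probe sets and 10.0% of those in the same signal range. These sets read 1 transcript and are not independent of each other.

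The Rrm2 rise was of like size in every pair of arrays. The unblocked calls were lost without most single arrays, where calls over all kept probe sets also became fewer. Averaged over the 3 probe sets, it was 0.45 log2 units in the replicate 1 pair, 0.50 in the replicate 2 pair and 0.46 in the replicate 3 pair. Without the block, no Rrm2 probe set passed in fits that omitted null 2, null 3, wild-type 1, wild-type 2 or wild-type 3, where 1448226_AT had limma adjusted p-values of 0.208, 0.117, 0.054, 0.139 and 0.148. In these fits 0, 3, 34, 0 and 1 of all kept probe sets passed, in the same order, against 51 over all arrays. Without null 1, the sets 1448226_AT and 1434437_X_AT passed (0.0418 and 0.0419), in a fit where 58 of all kept probe sets did. The difference for 1448226_AT stayed between 0.51 and 0.55 log2 units in all these fits. With the block, the 3 sets passed whichever pair was left out, with adjusted p-values up to 0.0142. Without the intensity trend in the variance model, 1448226_AT passed with the block (limma adjusted p = 0.0497), while 1434437_X_AT (0.0572) and 1416120_AT (0.0599) did not. Without both the block and the trend no Rrm2 set passed, with adjusted p-values of 0.0758 for 1448226_AT, 0.138 for 1434437_X_AT and 0.184 for 1416120_AT.

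Rrm1, the large subunit, which holds the catalytic and regulatory sites of the same enzyme, did not pass the test in either direction. Probe set 1415878_AT read 11.34, 11.27 and 11.27 log2 units on the null arrays, against 11.51, 11.35 and 11.35 on the wild-type arrays. The null arrays were all below the wild-type arrays, by 0.004 log2 units at the nearest. Its difference was -0.11 log2 units (SE 0.041 with the block, limma adjusted p = 0.688 without and 0.149 with the block). The second Rrm1 set, 1448127_AT, read 11.65, 11.57 and 11.38 on the null arrays and 11.78, 11.62 and 11.57 on the wild-type arrays, and the genotypes overlapped. Its difference was -0.12 log2 units (limma adjusted p = 0.727 without and 0.123 with the block). The intervals, at 95% with the block, were -0.20 to -0.011 for 1415878_AT and -0.22 to -0.021 for 1448127_AT, unadjusted for the number of probe sets, and neither set passed the adjusted test.

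The unequal change of the reductase subunits was measured within each array as the mean of the Rrm2 sets minus the mean of the Rrm1 sets. This difference was 0.93, 1.11 and 1.10 log2 units on null arrays 1, 2 and 3, against 0.33, 0.55 and 0.51 on wild-type arrays 1, 2 and 3. The null arrays all stood above the wild-type arrays. It averaged 1.05 ± 0.10 in null and 0.46 ± 0.11 in wild-type arrays (SD, n = 3 each), so the ratio of Rrm2 to Rrm1 signal was 1.50-fold higher in null cells (exact two-sided permutation p = 0.1 without regard to pairs, the smallest that 3 against 3 unpaired arrays can give). Pair by pair, in the order of replicate numbers, the change was 0.59, 0.56 and 0.59 log2 units. Set against the mean of the 11 helicase probe sets, Rrm2 changed by 0.63 log2 units (exact two-sided permutation p = 0.1), and by 0.68, 0.62 and 0.58 in the 3 pairs. Neither contrast was planned beforehand. Both follow from the probe set values already given, so they add no separate support. The size of such a within-array difference also depends on how strongly each probe set binds, so only its change between genotypes is read here.

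**Figure D2:**
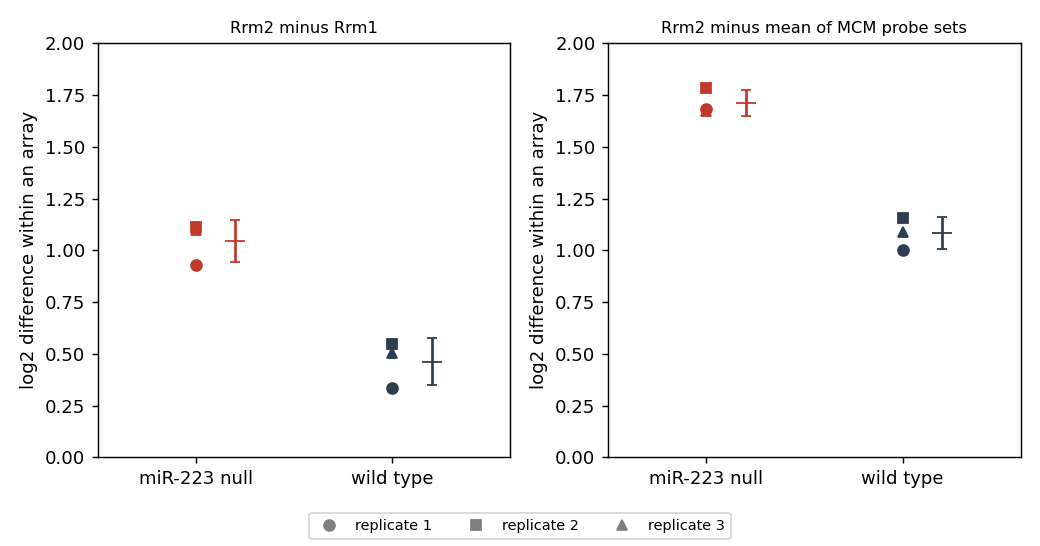
Log2 signal of Rrm2 (mean of 3 probe sets) minus that of Rrm1 (mean of 2 probe sets, left) and minus the mean of the 11 helicase probe sets (right), 1 point per array, with miR-223 null arrays left of wild-type arrays and bars for mean ± SD (n = 3). Null arrays average 1.05 and wild-type arrays 0.46 in the left panel, without overlap.

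The promoters of Rrm2 and Rrm1, genes for both subunits of 1 enzyme, are shown with that of Mcm6, which held the most E2F matches among the 5 helicase genes with a promoter entry. Each is the 250 bases before the RefSeq transcription start (GRCm38.p6), read 5′ to 3′ on the gene's strand. Capitals mark matches on either strand to the E2F core letters TTCCCGC or its variants TTGGCGC as well as TTCGCGC and also TTGCCGC, and to CCAAT, the box bound by NF-Y. Matches that overlap each other are drawn as 1 run.
Rrm2, chr12:24708004-24708253, plus strand: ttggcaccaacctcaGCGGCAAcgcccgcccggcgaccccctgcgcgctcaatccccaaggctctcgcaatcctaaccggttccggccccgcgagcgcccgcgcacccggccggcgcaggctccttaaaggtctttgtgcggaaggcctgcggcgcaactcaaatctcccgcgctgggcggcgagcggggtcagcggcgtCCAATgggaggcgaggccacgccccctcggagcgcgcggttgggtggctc
Rrm1, chr7:102441445-102441694, plus strand: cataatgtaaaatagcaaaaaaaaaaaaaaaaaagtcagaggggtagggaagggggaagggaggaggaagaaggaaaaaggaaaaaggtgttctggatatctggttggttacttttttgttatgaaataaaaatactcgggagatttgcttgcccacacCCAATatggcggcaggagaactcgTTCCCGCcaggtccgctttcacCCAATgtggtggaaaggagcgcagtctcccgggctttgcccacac
Mcm6, chr1:128359706-128359955, minus strand: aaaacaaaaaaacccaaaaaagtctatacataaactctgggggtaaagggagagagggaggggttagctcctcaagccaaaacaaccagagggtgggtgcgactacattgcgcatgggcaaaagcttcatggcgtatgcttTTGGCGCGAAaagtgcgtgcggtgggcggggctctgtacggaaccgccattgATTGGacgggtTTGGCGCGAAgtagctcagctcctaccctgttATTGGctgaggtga

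An E2F core was found in 6 of the 10 windows of these genes, and in 7.89% of all 32851 RefSeq promoter windows of this length. These 6 belong to 5 of the 9 genes with a promoter entry (Mcm5, Mcm6, Mcm7, Rrm1 and Rrm2). The Mcm6 window held 4 core matches in 2 overlapping pairs, beginning 109, 106, 46 and 43 bases before the start. The Rrm1 window held 1, at 67 bases, and the Rrm2 window 1, at 235 bases. The longer forms with a leading T (TTTCCCGC, TTTGGCGC, TTTCGCGC and TTTGCCGC) were present in the windows of Mcm5, Mcm6 and 1 of the 2 Mcm7 starts, and in 1.86% of all windows. CCAAT was found in 9 of the 10 windows, for 8 of the 9 genes, all but Tk1, and in 33.8% of all windows. It lay 50 bases before the start of Rrm2 and 91 and 45 bases before that of Rrm1. The E2F core and CCAAT thus occurred both in the gene that rose and in genes that averaged lower. The longer forms were absent from the Rrm2 window. Whether any of these matches bears on the differences was not tested. A match describes the letters only, and its absence says nothing about binding. For Mcm4 no promoter was used here.

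The helicase genes averaged lower in null cells by all 11 of their probe sets, by little. The differences ran from -0.06 to -0.29 log2 units with a median of -0.16. In 10 of the 11 sets the null array was the lower in 3 of 3 pairs, where 25.0% of all kept probe sets and 36.3% of those in the same signal range were. Null and wild-type arrays did not overlap in 6 of the 11, where 8.68% of all kept probe sets and 12.1% of those in the same signal range had every null array below. Without the block 0 of 11 passed (limma adjusted p from 0.411 to 0.766, 1 at an unadjusted p under 0.05), and with it 3 passed as lower, where 5.05% of all kept probe sets and 11.8% of those in the same signal range did. With the block 7 of 11 had an unadjusted p under 0.05, where 14.5% of all kept probe sets and 26.5% of those in the same signal range were lower at that p. Probe sets of 1 gene read the same transcript and the helicase genes are switched on together, so these counts are not counts of independent measurements.

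The median over the 11 helicase sets differed between pairs. It was -0.21 log2 units in the replicate 1 pair, -0.11 in the replicate 2 pair and -0.08 in the replicate 3 pair. With null 1 left out the median of the differences was -0.11, and with wild-type 1 left out it was also -0.11, against -0.16 over all arrays. The direction was the same in each of these fits.

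**Figure D3:**
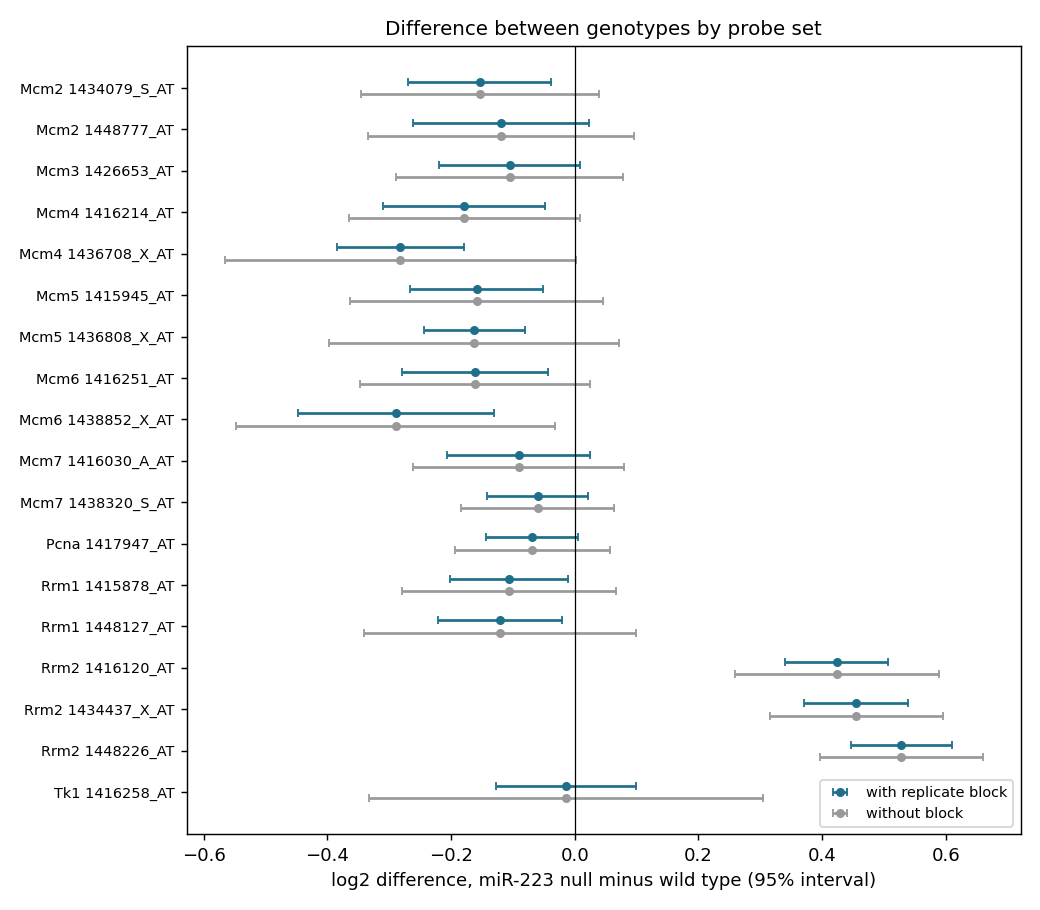
Log2 difference between miR-223 null and wild-type arrays for each probe set, with 95% intervals from limma with the replicate number as a block (blue) and without it (grey). The 3 Rrm2 sets lie between 0.42 and 0.53, and the other 15 lie between -0.29 and -0.015.

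Mcm4, Mcm6 and Mcm7 form the core of the ring that has helicase activity by itself. For Mcm4, probe set 1436708_X_AT read 10.44, 10.17 and 10.16 log2 units on null arrays 1, 2 and 3, against 10.73, 10.44 and 10.45 on wild-type arrays 1, 2 and 3. Null 1 reached the level of wild-type 2 and 3, so the genotypes overlapped, while each null array was 0.27 to 0.29 log2 units below its partner. It fell by 0.28 on the log2 scale, to 82.3% of the wild-type signal (SE 0.044, limma adjusted p = 0.0108 with the block, 0.47 without). Omitting the replicate 2 pair from the blocked fit ended the call (limma adjusted p = 0.0878), as did a variance model without the intensity trend (0.092). The second Mcm4 set, 1416214_AT, read 10.68, 10.82 and 10.85 on the null arrays and 10.99, 10.99 and 10.91 on the wild-type arrays, without overlap. Its difference was -0.18 log2 units and did not pass over all arrays (SE 0.056, limma adjusted p = 0.0902 with the block), though it did without the replicate 3 pair (0.0282).

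For Mcm6, probe set 1438852_X_AT read 10.21, 10.14 and 10.11 log2 units on the null arrays, against 10.59, 10.23 and 10.51 on the wild-type arrays. Wild-type 2 lay only just above the highest null array, and the other wild-type arrays lay well above. It fell by 0.29 on the log2 scale, to 81.8% of the wild-type signal (SE 0.068, limma adjusted p = 0.0391 with the block, 0.411 without). Within pairs the difference was -0.38, -0.09 and -0.40 log2 units. The call was absent without the replicate 1 pair (limma adjusted p = 0.117), without the replicate 3 pair (0.0855) and without the intensity trend (0.148). The set 1416251_AT read 11.34, 11.52 and 11.58 on the null arrays, against 11.63, 11.64 and 11.66 on the wild-type arrays. Null 1 was the lowest and the genotypes did not overlap, with a difference of -0.16 log2 units that did not pass (limma adjusted p = 0.0889 with the block).

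Mcm7 had the smallest differences of the helicase genes. Its set 1438320_S_AT read 12.20, 12.20 and 12.21 log2 units on the null arrays, against 12.30, 12.23 and 12.26 on the wild-type arrays. The groups did not overlap, but the difference was -0.06 log2 units (95.9% of the wild-type signal, limma adjusted p = 0.333 with the block). Set 1416030_A_AT read 10.88, 10.89 and 10.93 on the null arrays and 11.05, 11.01 and 10.91 on the wild-type arrays. It was the 1 helicase set not lower in every pair, with null 3 above wild-type 3 by 0.017 log2 units (difference over all arrays -0.09, limma adjusted p = 0.302 with the block).

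Mcm2, Mcm3 and Mcm5 complete the ring, which opens between Mcm2 and Mcm5 to take in DNA. For Mcm5, probe set 1436808_X_AT read 12.06, 11.84 and 11.77 log2 units on the null arrays, against 12.21, 12.00 and 11.95 on the wild-type arrays. Both genotypes were highest on array 1, and the pair differences were close to each other, at -0.15, -0.16 and -0.18. It fell by 0.16 on the log2 scale, to 89.4% of the wild-type signal (SE 0.035, limma adjusted p = 0.0305 with the block, 0.638 without). The call was absent without the replicate 1 pair (limma adjusted p = 0.0786), without the replicate 2 pair (0.192) and without the intensity trend (0.208). The set 1415945_AT read 10.71, 10.64 and 10.60 on the null arrays and 10.91, 10.83 and 10.68 on the wild-type arrays, with a like difference of -0.16 log2 units that did not pass over all arrays (limma adjusted p = 0.0719 with the block) and did without the replicate 3 pair (0.0392).

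Mcm2 was read by 1434079_S_AT at 10.14, 10.31 and 10.24 log2 units on the null arrays, against 10.35, 10.38 and 10.42 on the wild-type arrays. The genotypes did not overlap, and the difference of -0.15 log2 units did not pass (SE 0.050, limma adjusted p = 0.0966 with the block). By 1448777_AT it read 9.71, 9.83 and 9.94 on the null arrays and 9.97, 9.92 and 9.95 on the wild-type arrays. Null 3 reached the wild-type level there, with a difference of -0.12 log2 units (limma adjusted p = 0.268 with the block). Mcm3, through which the ring is brought to the origin complex in yeast, read 9.82, 9.87 and 9.86 on the null arrays, against 9.96, 9.96 and 9.94 on the wild-type arrays. Its groups did not overlap, and the difference was -0.10 log2 units (1426653_AT, SE 0.049, limma adjusted p = 0.224 with the block).

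**Figure D4:**
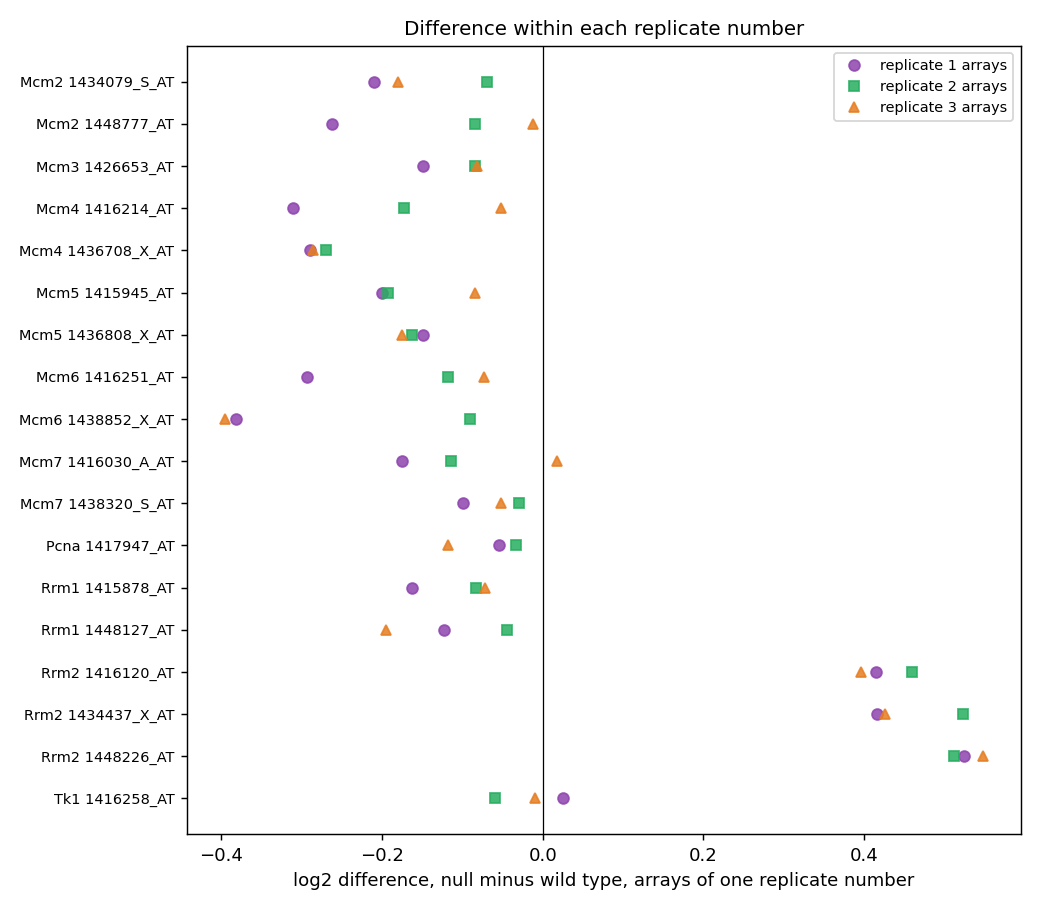
Log2 difference, miR-223 null minus wild type, between the arrays of 1 replicate number, for each probe set. The helicase sets lie left of 0 in all pairs except Mcm7 1416030_A_AT in the replicate 3 pair, the Rrm2 sets lie between 0.40 and 0.55, and Tk1 lies on both sides of 0.

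The 3 falls among the helicase genes were all read by X_AT sets, whose probes can also bind other transcripts. These were the 3 X_AT sets among the 11, and none of the 8 others passed with the block (limma adjusted p from 0.0719 to 0.333). With the block 5.05% of all kept probe sets and 11.8% of those in the same signal range passed as lower. The share among kept X_AT sets was not counted, so the split by ending only describes these sets. The median difference was -0.28 log2 units over the 3 and -0.14 over the 8. Over the 1666 X_AT sets that were kept the median difference was -0.009 log2 units, against -0.011 over all kept probe sets. Whether binding of other transcripts had a part in the 3 falls was not tested. Mcm4 and Mcm6 had larger differences by the X_AT set than by the other set, whereas both Mcm5 sets differed by -0.16.

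The X_AT sets of Mcm4 and Mcm6 shifted on the replicate 1 arrays in another way than their partners, and that of Mcm5 in the same direction as its partner. The Mcm4 set 1436708_X_AT was 0.28 log2 units higher on null 1 than on the mean of null 2 and 3, and 0.29 higher on wild-type 1 than on the mean of wild-type 2 and 3. The Mcm4 set 1416214_AT was 0.16 lower on null 1 and 0.041 higher on wild-type 1 in the same comparison. For Mcm6 the X_AT set was 0.085 higher on null 1 and 0.22 higher on wild-type 1, while 1416251_AT was 0.21 lower on null 1 and 0.016 lower on wild-type 1. For Mcm5 the X_AT set was 0.25 higher on null 1 and 0.23 higher on wild-type 1, and 1415945_AT was 0.092 and 0.15 higher. Such shifts were not limited to these sets, since Rrm1 1448127_AT was 0.18 higher on replicate 1 arrays of each genotype, and the Rrm2 set 1434437_X_AT was 0.12 lower on null 1 and 0.060 lower on wild-type 1. Among all kept X_AT sets 67.2% were higher on the replicate 1 arrays, against 51.9% of all kept probe sets. With both replicate 1 arrays left out, the X_AT differences were -0.278 (Mcm4), -0.169 (Mcm5) and -0.243 (Mcm6) log2 units. Over all arrays they were -0.282, -0.162 and -0.289 in the same order. The part of this shift in the 3 falls was not tested.

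**Figure D5:**
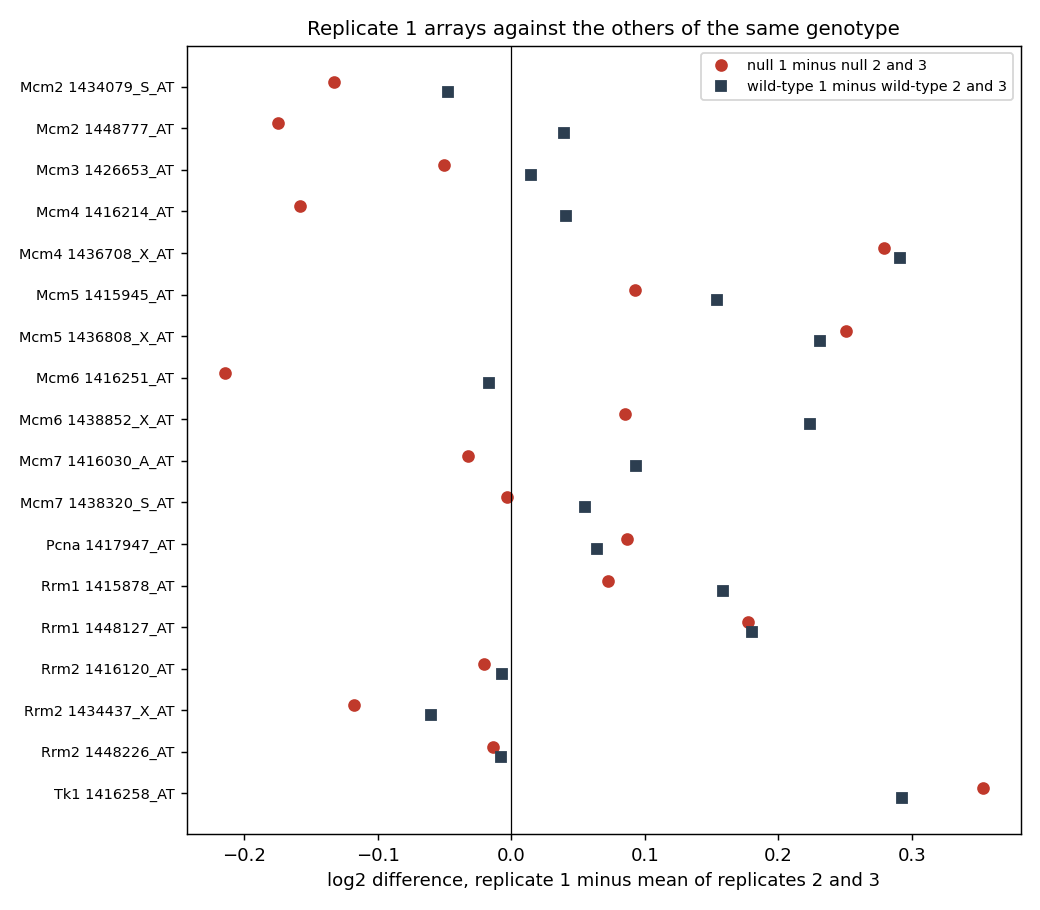
Log2 difference between the replicate 1 array and the mean of replicates 2 and 3 of the same genotype, for miR-223 null (red circles) and wild-type arrays (dark squares). Tk1 and the X_AT sets of Mcm4 and Mcm5 lie 0.23 to 0.35 above 0 in both genotypes, while the Rrm2 sets lie between -0.12 and -0.007.

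Pcna, the clamp, had the brightest of the 18 probe sets and little difference. It read 13.26, 13.23 and 13.12 log2 units on the null arrays, against 13.32, 13.26 and 13.24 on the wild-type arrays. The groups overlapped, with null 3 the lowest. The difference was -0.07 log2 units (1417947_AT, SE 0.032 with the block, limma adjusted p = 0.726 without and 0.225 with the block). Its interval, at 95% with the block, was -0.14 to 0.006.

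Tk1 varied more between replicates than between genotypes. It read 10.19, 9.85 and 9.83 log2 units on the null arrays, against 10.17, 9.91 and 9.84 on the wild-type arrays. Array 1 was the highest in both genotypes, by 0.35 log2 units in null and 0.29 in wild-type cells. The difference between genotypes was -0.015 log2 units (1416258_AT, SE 0.049, limma adjusted p = 0.896 with the block), and its sign turned when single arrays were left out. The interval, at 95% with the block, was -0.13 to 0.10 log2 units, so a change of Tk1 as large as that of Rrm2 lay outside it.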

How the data were processed

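RNA of cultured neutrophils, in 3 miR-223 null and 3 wild-type samples, was hybridised to Affymetrix-type mouse arrays with biotin labelling, per the labels. The table deposited by the authors holds log2 intensities for 45101 probe sets. That they are log2 values on 1 scale was read from the deposited values (array medians within 0.015 of each other). The submitters' processing notes name GCOS. Background correction, normalization and probe summary are not given in the sources used here. If the arrays were scaled to a common level, any change in total mRNA would be hidden. The number of arrays limits the precision.

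Values were used as deposited. After 64 control probe sets were set aside, those at or above the 40th percentile of the mean over 6 arrays were tested, 27022 of 45037 (mean at least 4.08), with limma 3.58.1 in R 4.3.3 (lmFit, eBayes with intensity trend), two-sided, adjusted over all of them. The code was tested on simulated data. The alternatives were the replicate number as a block, no filter, a filter at the 60th percentile, quantile normalization, median centring, no intensity trend, an adjusted p under 0.01 and leaving out arrays or pairs. Exact permutation tests used SciPy 1.17.1 and did not keep the pairing of arrays.

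Replicate numbers come from the sample titles. Deviations from the group means correlated at 0.70, 0.30 and 0.48 between null and wild-type arrays 1, 2 and 3, all above 0.1, so same-numbered arrays were treated as pairs. The pairing comes from the data, and the labels do not say what the number stands for.

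The 10 genes and the lists were chosen with earlier results of these data known. All 18 probe sets are named, as the rule for named genes asked. Lists of other replication genes, G1/S regulators, mitosis genes and cell type markers, and the search for the most similar genes, were not run because no table used here pairs probe sets with genes. Promoters of 9 of the 10 genes (10 windows) and the microRNA were matched by symbol or name in RefSeq (GRCm38.p6).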

Additional observations from a re-analysis of the deposited data

How the results depend on the processing

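The direction of Rrm2 and of all 11 helicase sets, Pcna and Rrm1 was the same in every alternative. That of Tk1 turned in 4 fits. Its difference ran from -0.13 to 0.083 log2 units when 1 array was left out, and was 0.038 log2 units without null 2, 0.051 without null 3, 0.083 without wild-type 1, and 0.0081 with the replicate block and without the replicate 2 pair. Of 18 probe sets, 2 passed without the block, 6 with the replicate block, 1 with no filter, 1 after quantile normalization, 1 after median centring, 0 without the intensity trend and 0 at an adjusted p under 0.01 (limma, with 4 at an unadjusted p under 0.05 in both). Leaving out 1 array gave 0 to 2. Leaving out both replicate 1 arrays, a fit chosen after seeing the data, gave 3, all Rrm2. With the replicate block, 1 of the 18 (Rrm2 1448226_AT) passed without the intensity trend, 3 (Rrm2) at an adjusted p under 0.01, and 4 to 7 when 1 pair was left out. The block together with either filter, quantile normalization or median centring, also chosen afterwards, gave 6 each. Of all kept probe sets, 51 passed without and 2703 with the block. Without the block the count was 52 with no filter and 42 with the filter at the 60th percentile. It was 60 after quantile normalization, 49 after median centring and 38 without the intensity trend. With the block it was 2455 with no filter and 3052 with the filter at the 60th percentile. After quantile normalization and median centring the blocked counts were 2562 and 2546. Without the block 2 passed at an adjusted p under 0.01, 1072 without both replicate 1 arrays and 0 to 58 without 1 array. The count of 0 arose without null 2 or wild-type 2 (limma, 2064 and 1753 at an unadjusted p under 0.05). With the block 625 passed at an adjusted p under 0.01, 191 without the trend and 606 to 2319 without 1 pair. The cause of these moves was not tested. The alternatives for gene lists were not run, since probe sets other than the 18 have no gene names here. Signal over background was not given, so what it limits was not assessed.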
